A study of Mus musculus with 20 samples.

Results

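The CC chemokines are small secreted proteins with adjacent cysteines near the start of the mature protein, and 10 of their genes, Ccl2, Ccl3, Ccl4, Ccl5, Ccl6, Ccl7, Ccl8, Ccl9, Ccl12 and Ccl24, were chosen by name from the 16790 genes measured by single-cell RNA sequencing (scRNA-seq). All 10 were found in both expression tables, which held 15855 genes in cultured macrophages and 15333 genes in tumor. Cultured cells were of 2 kinds, each with 2 libraries. B-MF are macrophages that arise when B cells of bone marrow (BM) are kept for a week in medium conditioned by 4T1.2 cells, a mouse mammary carcinoma line, and Mo-MF are macrophages made from BM monocytes in the same medium. The study used young female mice, mostly of the C57BL/6 and BALB/c strains, and which strain gave the sequenced cultures, and any allele they carried, is not given in the sources used here. The 4 tumor libraries, numbered 2 to 5 by the authors and not matched here to the single samples of the labels, were cells that were sorted as tumor-associated macrophages (TAM) from 4 mice carrying 4T1.2 tumors, a model grown in BALB/c mice. A further 12 libraries of open chromatin (ATAC-seq) came from CSF1R+ and CSF1R- B-cell precursors of BM and spleen of untreated mice, with 3 libraries in each of the 4 groups, and the labels call these cells macrophages although the methods describe B-cell precursors.

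Chemokines form gradients that guide white blood cells through receptors coupled to G proteins. CCL2, CCL7 and CCL12 attract monocytes through CCR2, and mouse CCL8 also acts through CCR8. CCL3, CCL5, CCL6 and CCL9 act through CCR1, and CCL24 (eotaxin-2) attracts eosinophils through CCR3. In tumors, macrophages are known both as sources of these proteins and as cells recruited by them.

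Of the 10 genes, 9 lie on chromosome 11 of GRCm38 (mm10) in a pair of groups. The genes of the monocyte-attracting proteins stand together on the plus strand, Ccl2 at chr11:82035571-82037453, Ccl7 at chr11:82045712-82047525, Ccl12 at chr11:82101845-82103400 and Ccl8 at chr11:82115185-82116799. The group of the macrophage inflammatory proteins holds Ccl5 at chr11:83525778-83530518, Ccl9 at chr11:83572919-83578636, Ccl6 at chr11:83587882-83593087 and Ccl3 at chr11:83647844-83649355 on the minus strand and Ccl4 at chr11:83662584-83664683 on the plus strand. Ccl24 lies apart, on the minus strand of chromosome 5 (chr5:135569937-135573049). RefSeq promoter sequence of GRCm38.p6 was found for 5 of the 10 members. The 100 bases before the RefSeq start of each are shown, which for Ccl3 is 83649378, upstream of the gene start given above, because Ccl8 and Ccl12 are neighbors that differed in opposite directions between the cultures, and because a peak of open chromatin was called at the starts of Ccl3 and Ccl6 in B-cell precursors but not at those of Ccl8, Ccl9 and Ccl12. Capitals mark the letters TATAAA, searched on both strands, and ACTTCC, the complement strand of GGAAGT, the core bound by PU.1 and other ETS factors. In Ccl9 the capitals also cover an overlapping match of TATAAA on the other strand.
Ccl12, chr11:82101745-82101844, plus strand: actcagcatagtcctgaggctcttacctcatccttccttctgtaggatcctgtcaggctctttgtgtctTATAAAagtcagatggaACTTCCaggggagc
Ccl8, chr11:82115085-82115184, plus strand: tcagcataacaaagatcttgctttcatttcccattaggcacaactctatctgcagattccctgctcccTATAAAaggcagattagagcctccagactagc
Ccl9, chr11:83578637-83578736, minus strand: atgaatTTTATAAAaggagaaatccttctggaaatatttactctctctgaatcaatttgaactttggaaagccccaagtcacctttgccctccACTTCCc
Ccl6, chr11:83593088-83593187, minus strand: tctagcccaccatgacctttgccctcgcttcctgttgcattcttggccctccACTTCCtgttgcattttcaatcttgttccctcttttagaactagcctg
Ccl3, chr11:83649379-83649478, minus strand: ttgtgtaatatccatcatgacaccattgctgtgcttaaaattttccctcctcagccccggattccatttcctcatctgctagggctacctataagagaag

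Counted in bases from the start, TATAAA began at -31 in Ccl12 and at -32 in Ccl8. In Ccl9 it lay farther away, at -92. ACTTCC was found at -14 in Ccl12, at -7 in Ccl9 and at -48 in Ccl6, and the shown stretches of Ccl8 and Ccl3 had none. Over the same 100 bases, TATAAA was present in 5.56% and GGAAGT in 10.0% of 32851 RefSeq promoters, on either strand. In a global alignment of the shown stretches, gaps included, Ccl12 and Ccl8 were identical at 61.1% of positions, against 43.8 to 54.1% in the other 9 pairs of these 5 genes. These letters describe the windows, and factor binding was not measured.

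The 2 B-MF libraries held 5237 and 5326 cells and the 2 Mo-MF libraries 4846 and 5389, with medians of 18350 to 19469 corrected counts per cell. The tumor libraries held 2318 to 3180 cells with medians of 7651 to 8266. These are counts after correction by SCTransform, which moves all cells of a table to a shared depth and can add counts to shallow cells, so the depth of sequencing is unknown. No 2 libraries shared more than 14 cell barcodes, and no more than 0.302% of the barcodes of a library were found in another. All 8 macrophage markers, among them Csf1r, Adgre1 and C1qa, were counted in at least 50% of cells in each culture library. Summed B-cell markers were 0.536 and 0.490 counts per B-MF, while Mo-MF replicate 1 had 3.42 counts per cell and replicate 2 had 0.151, and none of the 7 was found in 50% of the cells of any of these libraries. Neutrophil markers, summed, were 4.56 to 4.83 in B-MF and 122 to 151 in Mo-MF. In tumor the marker check went against the label: 2 or 3 of the 8 macrophage markers reached 50% of cells, while neutrophil markers summed to 440 to 774 counts per cell. Values in tumor are therefore given by cell class, and these cells are called tumor-sorted cells here.

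The first comparison asked how the cultured macrophages of B-cell and of monocyte origin differ in chemokine expression. In B-MF, 9 of the 10 transcripts were higher than in Mo-MF, among them Ccl24, Ccl5, Ccl4, Ccl3 and Ccl2, and Ccl8 was lower. Over all genes tested, 22.6% were called higher and 16.9% lower in B-MF, and 39.5% in either direction. The median difference of the 10 members was 0.71 on the log2 scale, against 0.02 for all 8633 genes tested. Levels are mean corrected counts per cell, and differences are B-MF minus Mo-MF on the scale of log2(library mean + 0.1), which understates the change of low genes. They were tested by limma with Benjamini-Hochberg adjustment over all 8633 genes. The labels do not say whether the libraries came from separate cultures, so the p-values measure the spread between these libraries. The counts tag the 3′ end of each transcript and were not divided by gene length.

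Among the monocyte-attracting chemokines, Ccl2 averaged 9.81 and 9.20 counts per B-MF and 5.81 and 5.71 counts per Mo-MF. Both B-MF values lay above both Mo-MF values, and limma gave a difference of 0.71 ± 0.05 (log2, SE) at an adjusted p of 2.5e-05. Ccl7, the neighbor of Ccl2 that encodes MCP-3, averaged 6.44 and 6.04 counts per B-MF but 4.55 and 4.49 per Mo-MF, a limma difference of 0.46 ± 0.05 at an adjusted p of 0.00034. Ccl12, which encodes MCP-5, differed least, with 2.18 and 1.98 counts per B-MF beside 1.63 and 1.65 per Mo-MF (0.32 ± 0.06, limma adjusted p of 0.0036).

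Ccl8, which encodes MCP-2 and lies next to Ccl12, went the other way. It averaged 7.15 and 6.56 counts per B-MF but 24.0 and 23.1 per Mo-MF, where the level was 3.44 times as high. The limma difference was -1.77 ± 0.06 at an adjusted p of 2.7e-07. Ccl8 made up 8.19 and 7.74% of what B-MF held of all 10 members together, and 31.6 and 30.6% of what Mo-MF held. The sum of the 10 members was nearer between the cell types than most single members, at 87.3 and 84.8 counts per B-MF compared with 76.1 and 75.5 per Mo-MF, or 0.454 to 0.457% and 0.398 to 0.400% of all counts.

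Of the macrophage inflammatory proteins, Ccl3 (MIP-1α) and Ccl4 (MIP-1β) had B-MF means of 1.99 times those in Mo-MF. Ccl3 averaged 4.96 and 4.54 counts per B-MF against 2.42 and 2.36 per Mo-MF (0.96 ± 0.06, limma adjusted p of 7.2e-06). Ccl4 averaged 11.4 and 10.7 counts against 5.50 and 5.65 (0.98 ± 0.05, limma adjusted p of 4.5e-06). For both genes the groups stood apart. The pair kept close proportions, with 0.418 to 0.440 Ccl3 counts for each Ccl4 count in the 4 libraries.

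Ccl6 and Ccl9 encode CCR1 ligands that rodents have and humans lack. Ccl6 was the most counted member in every culture library, with 37.7 and 38.2 counts per B-MF against 28.0 and 28.3 per Mo-MF (0.43 ± 0.05, limma adjusted p of 0.00027). Ccl9, its neighbor, averaged 6.87 and 6.86 against 4.18 and 4.10 (0.72 ± 0.05, limma adjusted p of 1.4e-05). For both genes the replicates of a cell type lay much closer to each other than to the other cell type.

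Ccl24 and Ccl5 were the least counted members and had the largest ratios. Ccl24 averaged 0.497 and 0.467 counts per B-MF against 0.0462 and 0.0421 per Mo-MF, which makes the B-MF mean 10.9 times as high (2.01 ± 0.05, limma adjusted p of 1.0e-07). Ccl5 (RANTES), which attracts T cells and monocytes, averaged 0.252 and 0.260 counts per B-MF but 0.0111 and 0.0657 per Mo-MF, whose libraries held 54 and 354 counts in all. The groups did not overlap (1.39 ± 0.15, limma adjusted p of 0.00022), and the Mo-MF replicates differed more from each other than for any other member. A single cell set most of that gap, since 225 of the 354 counts of replicate 2, and 22 of the 54 counts of replicate 1, lay in 1 cell each. In B-MF too, a small share of cells held much of the Ccl5 counts, as given below. When deposited natural logs were averaged in place of counts, Ccl5 was not called (difference of 0.05, limma adjusted p of 0.080). The plot of levels by library shows both groups of all 10 genes.

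**Figure D1:**
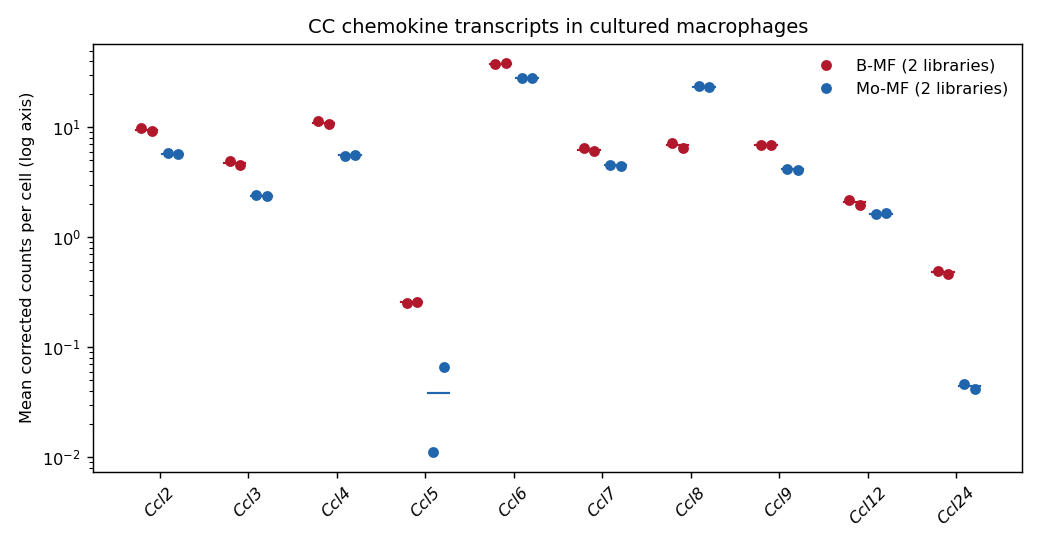
Mean corrected counts per cell (log axis) of each CC chemokine in the 2 B-MF and the 2 Mo-MF libraries, with each point a library and each line the mean of the group. Points of B-MF lie above those of Mo-MF for 9 genes and below them for Ccl8, and the Mo-MF points of Ccl5, at 0.0111 and 0.0657, are the farthest apart.

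Neutrophil-like cells, which made up 9.48 to 10.3% of the Mo-MF libraries and only 3 cells of the B-MF libraries, were then left out together with all other cells outside the monocyte/macrophage-like clusters. With these cells alone, 5103 and 5223 B-MF against 4325 and 4863 Mo-MF, the same 9 members were called higher and Ccl8 lower, beside 20.7% of the 8595 genes tested in these cells called higher and 17.2% lower. The log2 differences were 2.01 for Ccl24, 1.56 for Ccl5, 0.37 for Ccl7, 0.23 for Ccl12 and -1.87 for Ccl8. Neutrophil-like cells of Mo-MF held 4.65 to 12.6% of the counts of Ccl2, Ccl3, Ccl4, Ccl6, Ccl7, Ccl8, Ccl9 and Ccl12, 8.04 and 15.9% of those of Ccl24 and 0.282 to 1.85% of those of Ccl5.

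The share of cells with a count of each transcript was compared next. A larger share of cells had at least 1 count in both B-MF libraries than in both Mo-MF libraries for 9 members, and a smaller share for Ccl8. Of all genes tested, 26.8% were likewise above in both B-MF libraries and 26.0% below. Ccl6 was found in nearly every cell, 99.7 and 99.8% of B-MF and 98.9 and 98.8% of Mo-MF, and Ccl9 in 91.9 and 93.3% of B-MF and in 79.4 and 78.7% of Mo-MF. Ccl2 was found in 68.5 and 70.3% of B-MF and in 45.5 and 47.2% of Mo-MF, and Ccl7 in 59.5 and 58.4% and in 37.2 and 38.4%. Ccl8 was found in 59.1 and 67.1% of B-MF and in 90.9 and 91.6% of Mo-MF. Within Mo-MF, 64.6 and 64.2% of neutrophil-like cells had a Ccl2 count, against 43.2 and 45.3% of monocyte/macrophage-like cells. For Ccl8 these shares were 90.2 and 93.3% against 91.0 and 91.4%, and for Ccl12 15.6 and 16.6% against 24.6 and 25.7%. Whether a single corrected count is a transcript of that cell or background RNA was not tested.

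The share of Ccl24+ cells set the cell types farthest apart in proportion, with 22.9% (95% Clopper-Pearson interval 21.8 to 24.1%, which covers counting error) and 20.2% (19.1 to 21.3%) in B-MF and 2.77% (2.32 to 3.27%) and 2.73% (2.31 to 3.20%) in Mo-MF. Ccl5 was rare in both, in 2.71 and 2.61% of B-MF cells and in 0.454 and 0.872% of Mo-MF cells. With 2 libraries in each group a two-sided exact permutation test of the shares cannot give a p below 0.333, and none was run. When each cell was thinned to 10000 counts, the shares fell but kept their order, for example to 58.0 and 60.7% against 34.2 and 35.4% for Ccl2 and to 14.6 and 12.9% against 1.80 and 1.74% for Ccl24. The plot of shares gives the thinned values as open circles beside the others.

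**Figure D2:**
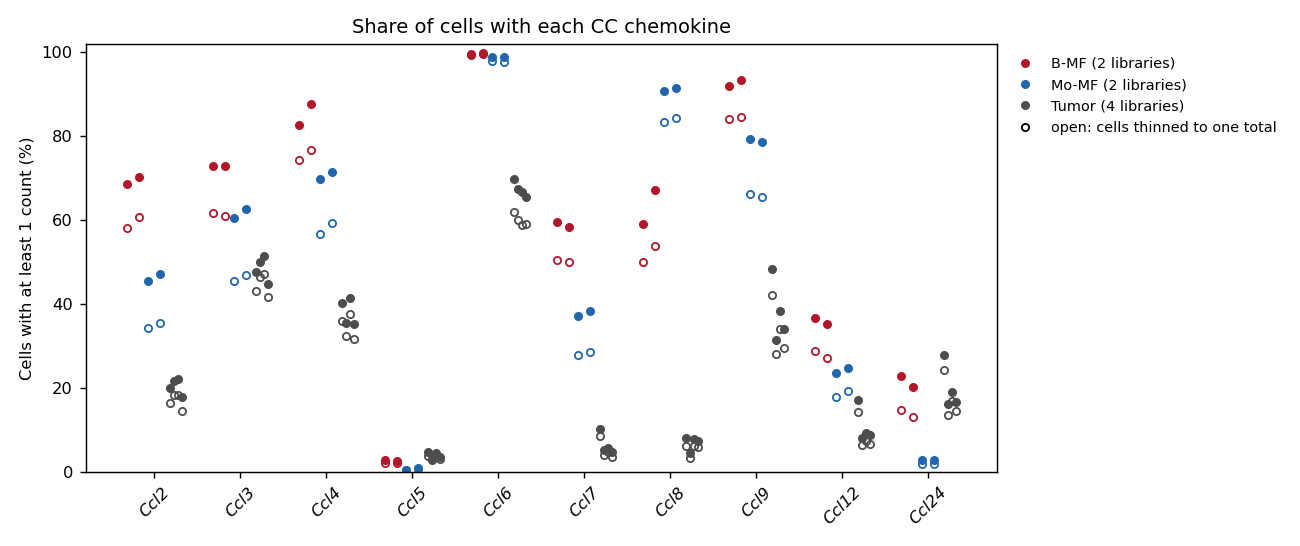
Percent of cells with at least 1 corrected count of each CC chemokine, with a point for each library and open circles for cells thinned to 10000 counts in cultures and 5000 in tumor. B-MF points lie above Mo-MF points for 9 genes and below them for Ccl8, and Ccl6 is at 65.6% or more in all 8 libraries, with no other member that high in tumor.

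For several members a small part of the cells held most of the transcripts. In Mo-MF, 2.74 and 2.75% of cells held 50% of all Ccl2 counts, and 2.27 and 2.54% held 50% of all Ccl7 counts. In B-MF the same amount was spread over 7.73 and 8.21% of cells for Ccl2 and over 7.28 and 7.45% for Ccl7. Cells with Ccl7 held 10.8 and 10.3 counts each among B-MF but 12.2 and 11.7 among Mo-MF, but the median over these cells was 5 counts in both B-MF libraries and 1 count in both Mo-MF libraries. The Mo-MF mean was thus carried by few cells with many counts. Ccl8 had the opposite distribution, with 50% of its counts in 4.37% of the cells of each B-MF library and in 9.12 and 9.46% of Mo-MF cells, and positive cells held 12.1 and 9.78 counts each among B-MF but 26.4 and 25.3 among Mo-MF. Ccl6 was the most evenly held, with 50% of its counts in 22.5 to 26.8% of cells. Ccl5 was the least evenly held. As means over libraries, 50% of its counts lay in 0.171% of B-MF and in 0.0402% of Mo-MF cells.

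The producing cells were sought by clustering with all chemokine and chemokine receptor genes left out, and clusters were named from marker genes. Cluster values are a description and were not tested. Monocyte/macrophage-like clusters made up 97.4 and 98.1% of the B-MF libraries and 89.2 and 90.2% of the Mo-MF libraries, and they were the first source of 9 members in every culture library. Most B-MF of this class lay in clusters 0 and 1 and most Mo-MF in clusters 2, 3 and 4, so the class was not made of the same clusters in the 2 cell types. Ccl5 was the exception. In Mo-MF replicate 2, 63.6% of its counts lay in 1 of the 14 cells of cluster 11, which was led by Igkc, Prss34 and MHC class II genes and stayed unnamed, and in replicate 1 a single cell of this cluster held 40.7%. These cells were outside the monocyte/macrophage-like class, in which the Ccl5 difference of 1.56 was found.

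Within Mo-MF, Ccl2 and Ccl7 lay mostly in cluster 4, which was led by Tmem171, Ly6a and Serpine2 and held 831 and 1007 cells. Its Ccl2 mean over libraries was 19.4 counts per cell, against 2.87 in cluster 3, led by Arg1, and 0.622 in cluster 2, led by Mmp14. Cluster 4 held 59.1 and 61.5% of all Ccl2 counts, 67.3 and 66.7% of Ccl7, 43.2 and 46.7% of Ccl4 and 46.1 and 47.4% of Ccl12. Ccl8 did not follow this pattern: it had 34.8 and 31.0 counts in cluster 4, 23.1 and 21.8 in cluster 3 and 24.7 and 23.6 in cluster 2. All 3 clusters were thus high in Ccl8, while Ccl2 was low in cluster 2, as was Ccl7, with 17.8 and 16.0 counts in cluster 4 and 0.301 and 0.379 in cluster 2.

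In B-MF, clusters 0 and 1 ranked in opposite order for Ccl2 and Ccl8. Cluster 0, led by Cdkn2a, Myc and Rasgrp3, had a Ccl2 mean of 9.78 and 9.89 and a Ccl8 mean over libraries of 4.35. Cluster 1, led by Cxcl5, Nrg1 and Egr1, had 5.77 and 5.52 for Ccl2 and a mean over libraries of 10.3 for Ccl8. Cycling cells in cluster 10, led by Uhrf1 and Mcm6, had Ccl2 means of 24.8 and 25.6, and the other cycling cluster, 5, had 28.5 and 22.2, and both lay above the other macrophage-like clusters with at least 10 B-MF in each library. A small cluster of 79 B-MF, cluster 13, was led by interferon-induced genes such as Cxcl10, Rsad2 and Ifit1, and there Ccl12 had 8.37 and 11.6 counts per cell against 1.60 to 2.40 in clusters 0 and 1.

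Of the clusters that held cells of both kinds, the macrophage-like clusters 5, 6 and 8 were compared. In cluster 5, with 571 B-MF and 414 Mo-MF and led by mitosis genes such as Cenpf and Birc5, 7 members were higher in both B-MF libraries than in both Mo-MF libraries, Ccl8 was lower, and Ccl3 and Ccl12 overlapped, where 26.3% of all genes tested were higher and 36.1% lower in this way. In cluster 6, with 558 and 332 cells and led by Malat1 and mitochondrial genes, 7 were higher, Ccl8 was lower and Ccl5 and Ccl6 overlapped, beside 23.0% of all genes higher and 20.6% lower. In cluster 8, with 41 and 457 cells, 4 were higher, Ccl8 was lower and 5 overlapped, beside 21.1% of all genes higher and 29.0% lower. The Ccl8 mean was 1.71 and 2.31 in B-MF against 25.4 and 27.9 in Mo-MF in cluster 5, 5.10 and 5.96 against 9.86 and 9.50 in cluster 6, and 6.81 and 2.93 against 31.6 and 25.9 in cluster 8. Ccl8 was thus the member that was lower in B-MF in each of these 3 clusters. The unnamed cells, mostly cluster 11, also held both kinds, with 131 and 103 B-MF and 21 and 15 Mo-MF. They mix cell types, so this is not a comparison of like cells. At a clustering resolution of 1, 222 cells led by MHC class II genes stood apart from 37 basophil-like cells led by Igkc and Prss34. The basophil markers Mcpt8, Cpa3, Cd200r3 and Fcer1a had no count in either B-MF library. No share over all genes was taken for the unnamed cells. Among them Ccl8 was higher in B-MF, at 14.7 and 10.2 against 3.86 and 3.60. Ccl3, at 7.05 and 5.91 against 15.4 and 14.7, and Ccl6, at 34.6 and 33.2 against 104 and 124, were lower in B-MF.

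**Figure D3:**
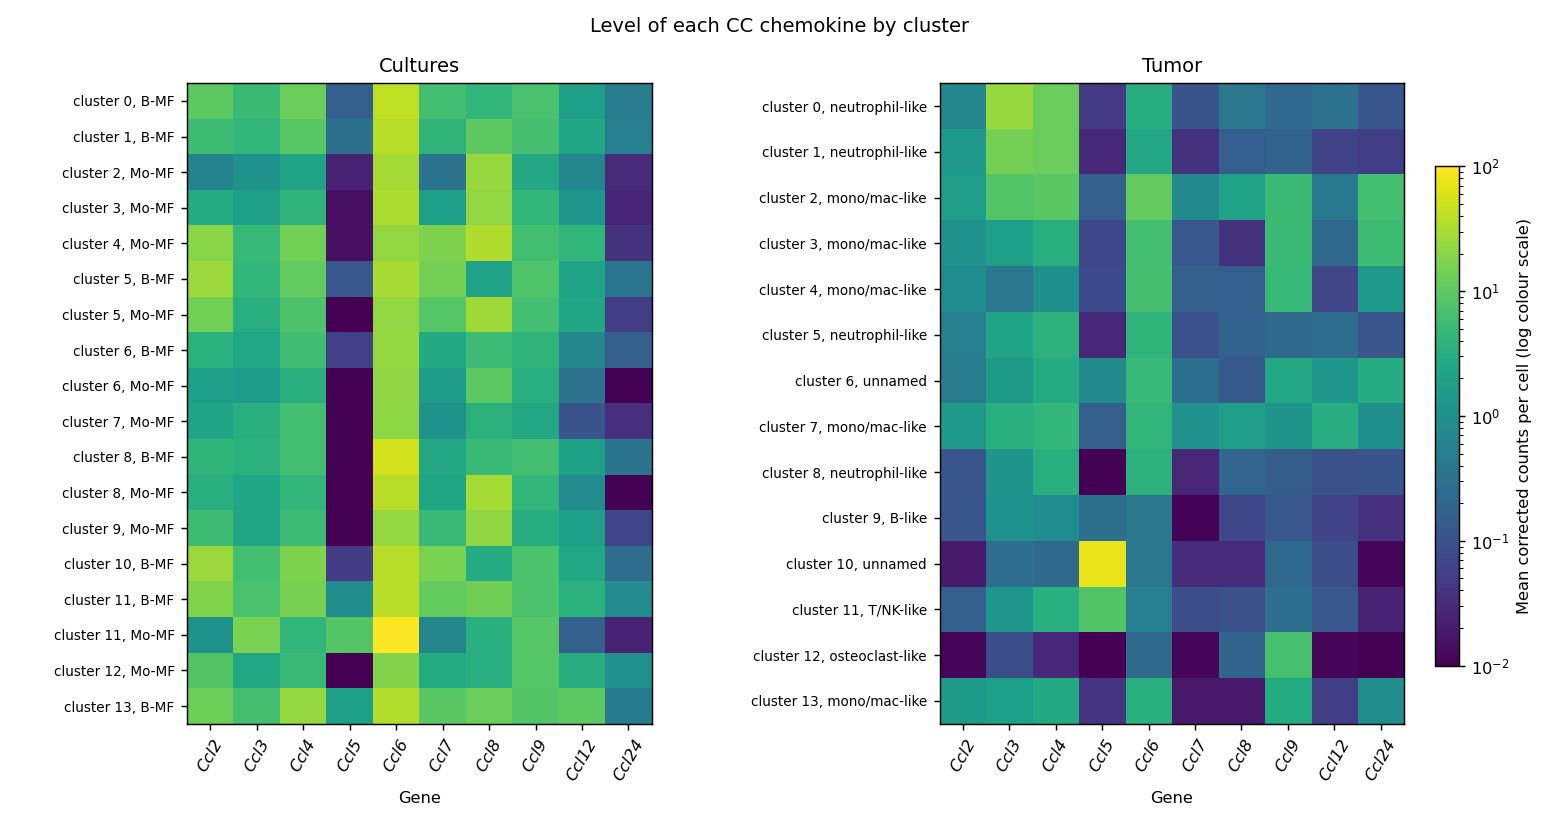
Mean corrected counts per cell (log color scale, mean of libraries) of each CC chemokine by cluster in cultures, where clusters with both cell types have a row for each, and in tumor. Ccl6 is bright in every culture row, Ccl8 is brighter in the Mo-MF than in the B-MF row of clusters 5, 6 and 8, and in tumor Ccl5 is bright in cluster 10 and Ccl3 in clusters 0 and 1.

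Transcripts of some members occurred in the same cells. Across cells, Pearson's r between deposited values of Ccl2 and Ccl7 averaged 0.79 over the B-MF and 0.84 over the Mo-MF libraries, and that of Ccl3 and Ccl4 was 0.63 and 0.59. These pairs, which had the highest r, are neighbors on the chromosome. The neighbors Ccl8 and Ccl12 had an r of 0.27 in both cell types, while Ccl2 and Ccl4, which lie in different groups, had 0.40 in B-MF and 0.47 in Mo-MF. Whether nearness on the chromosome orders the pairs was not tested. Of the cells with Ccl7, 86.6 to 88.5% also had Ccl2. Of the 45 pairs of members, 9 in B-MF and 10 in Mo-MF reached an r of 0.3, with medians of 0.05 and 0.09, and Ccl8 had an r of 0.03 with Ccl2 in B-MF. These correlations share library and depth correction and carry no test.

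Outside the chemokine ligands, the gene most like Ccl2 and Ccl7 in Mo-MF was Ccnd1 (cyclin D1), with r of 0.48 and 0.49, followed by the endocytic adaptor Dab2, at 0.45 and 0.46. In B-MF, where no gene passed an r of 0.3 with Ccl7, Egr3 was nearest to Ccl3, with an r of 0.31, and the lipid transfer protein gene Pltp and Apoe were near Ccl8, at 0.36 and 0.31. Lyz2, which encodes lysozyme, was nearest to Ccl6 at 0.35 in B-MF.

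Receptors of these chemokines differed as well. Of 18 CC receptors and decoy receptors on the list, 12 were in the culture table, 4 passed the filter on low values and all 4 were called, 1 of them higher and 3 lower in B-MF, and their median difference was -0.71. Of all genes tested, 22.6% were called higher and 16.9% lower. Ccr1, the receptor of CCL6 and CCL9, averaged 4.33 and 4.27 counts per B-MF against 2.06 and 1.93 per Mo-MF (1.07 ± 0.05, limma adjusted p of 2.6e-06). Neutrophil-like cells held 42.4 and 40.6% of the Mo-MF counts of Ccr1, and in monocyte/macrophage-like cells alone it averaged 4.28 and 4.24 counts per B-MF against 1.31 and 1.26 per Mo-MF. Ccr2, the receptor of CCL2, averaged 0.0447 and 0.0351 against 0.641 and 0.608 (-2.37 ± 0.06, limma adjusted p of 6.6e-08), so that this ligand and its receptor differed in opposite directions. Ccrl2, which binds chemerin, differed by -0.74 ± 0.06 (limma adjusted p of 3.4e-05). Of 13 other CC, C and CX3C ligands only Ccl25 passed the filter, and it was not called (log2 difference -0.18, adjusted p = 0.080 from limma).

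Among 28 genes of the inflammatory response, 19 were tested, of which 12 were called higher in B-MF and 4 lower, and the median difference was 0.31. The shares over all genes tested were 22.6% higher and 16.9% lower. Cd83 (1.63), Ier3 (1.49) and Cxcl1 (1.05) had the largest positive and the neutrophil attractant Cxcl3 (-1.54), Il1rn (-1.34) and Cxcl16 (-0.94) the largest negative log2 differences. Neutrophil-like cells held 92.6 and 93.1% of the Cxcl3 counts of the 2 Mo-MF libraries, and in monocyte/macrophage-like clusters alone Cxcl3 was under the filter on low values. In those clusters 15 of the 18 genes tested were called higher and 2, Il1rn (-1.46) and Cxcl16, lower, with a median of 0.75. Over all genes tested there, 20.7% were called higher and 17.2% lower. Cxcl2, called lower over all cells (-0.60), was called higher there (1.68, limma adjusted p of 4.0e-06), as were Il1b (1.54) and Ptgs2 (0.85), which had -0.18 and -0.10 over all cells and were not called. Of 20 transcription factors known to act on chemokine genes, 6 were called higher, 6 lower and 8 did not pass, with a median of 0.03, beside 22.6% higher and 16.9% lower over all genes. Egr1 (2.51), Fos (1.23) and Maf (0.92) were the most increased, while Irf7 (-1.47), which acts in the interferon response, was the most decreased.

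The second question was which cells hold the CC chemokines in tumor. The tumor table was corrected separately, so its levels are set beside those of cultures without a test. Ccl3, Ccl4 and Ccl6 were the most counted members in tumor. Ccl3 had 8.43, 9.10, 11.1 and 9.80 counts per cell in libraries 2 to 5, Ccl4 had 7.56, 6.06, 8.26 and 6.99, and Ccl6 had 6.09, 4.57, 4.40 and 4.44. Ccl3 took 26.5 to 36.5% of the members' counts there, where Ccl6 took most in cultures. Ccl2 had 0.853, 1.19, 1.12 and 0.746 counts per cell, Ccl7 0.140 to 0.531, Ccl8 0.261 to 0.729 and Ccl12 0.253 to 0.964. The tumor-sorted cells had a median of 2 or 3 detected members against 5 or 6 in cultured cells, and 5.82 to 10.9% of them had none. Detection was not compared at equal totals, since median corrected counts were 7651 to 8266 in tumor and 18350 to 19469 in cultures.

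Clusters named monocyte/macrophage-like held 4229 of the 10885 tumor-sorted cells, from 30.1 to 50.8% of a library, and clusters named neutrophil-like held 5490 cells, from 37.0 to 63.2%. Smaller classes were 753 cells in unnamed clusters, 243 B-like, 81 T/NK-like, 72 osteoclast-like and 17 fibroblast-like cells. Of the unnamed cells 651 made up cluster 6, led by Timd4 and MHC class II genes, in which 7 of the 8 macrophage markers were above their mean in the other cells, but which also had the dendritic cell marker Siglech among its leading genes. No cell of tumor libraries 2 and 3 had a Siglech count. In each library the monocyte/macrophage-like cells were the first source of Ccl6, Ccl7, Ccl8, Ccl9 and Ccl24 and the neutrophil-like cells that of Ccl3 and Ccl4. As a mean of libraries, 8 of the 10 members were higher in monocyte/macrophage-like than in neutrophil-like cells, a share near the 76.1% of all 5905 genes with a mean of at least 0.1 that were. The classes come from clusters of the same cells, so these values are a description.

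Ccl3 had a mean of 16.7, 12.9, 18.6 and 15.3 counts in neutrophil-like cells of libraries 2 to 5 and of 4.03, 2.95, 5.05 and 3.26 in monocyte/macrophage-like cells. Neutrophil-like cells held 73.3 to 89.5% of all Ccl3 counts and 51.3 to 80.3% of those of Ccl4. With a finer clustering, at a resolution of 1, these shares were 40.1 to 44.6% and 37.8 to 55.4%, since 841 and 517 cells of this class then fell in a pair of unnamed clusters. All 5 neutrophil markers were found in at least 50% of the cells of the first, which had 25.6 to 51.9 Ccl3 counts per cell, and in the second 4 of the 5 neutrophil and 5 of the 8 macrophage markers were. Unnamed clusters were then the first source of Ccl3 in 2 of the 4 libraries, and monocyte/macrophage-like cells that of Ccl4 in 1. Neutrophil-like cells were not alike in this: cluster 0 had 17.9 to 28.7 Ccl3 counts per cell, and cluster 8, led by granule genes of immature neutrophils such as Ngp and Ltf, had 0.840 to 1.63. Ccl4 was nearer between the classes, at 7.69 to 11.9 in neutrophil-like and 3.74 to 6.43 in monocyte/macrophage-like cells, and within the latter cluster 2, led by Arg1, Pf4 and Mmp12, had 7.10 to 11.8.

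The ratio of Ccl3 to Ccl4 counts separated these classes. It was 1.55 to 1.68 in neutrophil-like and 0.627 to 0.872 in monocyte/macrophage-like cells of tumor, against 0.418 to 0.440 over all cells of the culture libraries. Neutrophil-like cells of the Mo-MF cultures had ratios of 0.423 and 0.517, close to the 0.430 and 0.399 of the macrophage-like cells beside them. The neutrophil-like clusters of the cultures, 7 and 9, also had all 8 macrophage markers in at least 50% of their cells, against 1 or 2 of 8 in the neutrophil-like clusters of tumor. The part of macrophage RNA in the culture ratio was not tested, and the tables were corrected separately. Over the tumor-sorted cells, the genes most like Ccl3 were Hcar2 (r of 0.54), Ccrl2 (0.50) and Hilpda (0.46).

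Ccl24 and Ccl9 were higher in monocyte/macrophage-like than in neutrophil-like cells. Ccl24 had 4.88, 4.91, 3.79 and 3.62 counts per cell there and 0.0791 to 0.122 in neutrophil-like cells, and 80.9 to 92.6% of its counts lay in the former class. The unnamed cells had 5.27, 1.24, 1.53 and 2.31 Ccl24 counts and 2.81 to 17.6% of all, so that in library 2 they were above the named class. Among named clusters it was highest in the macrophage-like cluster 2, at 7.74, 6.69, 5.49 and 5.64, and in the monocyte-like cluster 3, at 6.03, 7.21, 5.28 and 4.65. Cluster 3 was led by Sdc1, Thbs1 and Havcr2. Ccl24 was lower in the monocyte-like cluster 4, led by Tmem176b and Ccr2, at 1.30 to 1.66. It was also lower in the macrophage-like cluster 7, led by C1q genes, at 0.770 to 1.34, so its level did not follow these names. Ccl9 had 4.76, 4.74, 4.33 and 4.70 counts in monocyte/macrophage-like and 0.185 to 0.245 in neutrophil-like cells, and its means over libraries in clusters 4, 2 and 3 were 4.72, 5.28 and 5.40, against 1.41, 6.39 and 5.79 for Ccl24. The 72 osteoclast-like cells had 4.56 to 8.23 Ccl9 counts, and none of them had a Ccl24 count, which allows a share with a count of up to 4.17%, by 3 counts of the total, and does not limit the share that expresses the gene.

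The monocyte-attracting members were low and held by few cells in tumor. Ccl8 reached 2.19, 1.39, 2.57 and 1.88 counts per cell in cluster 2, which held 40.1 to 55.9% of its counts, although only 7.79 to 10.6% of that cluster's cells had any. At a clustering resolution of 1, Ccl8 led a cluster of 86 cells together with Cd163, Cbr2 and Lyve1. It was then not among the leading genes of the cluster led by Arg1. Over all tumor-sorted cells, 0.209 to 0.433% of cells held 50% of the Ccl8 counts. Ccl12 was highest in the C1q-high cluster 7, at 4.41, 3.36, 2.09 and 2.70 counts per cell, which held 25.2 to 48.1% of its counts, and unnamed cells had 0.725 to 2.12, against 0.350 to 1.24 over the monocyte/macrophage-like class. The genes most like Ccl12 were C1qa (r of 0.40), C1qc (0.39) and C1qb (0.38). Ccl7 had 1.84, 0.864, 0.496 and 1.01 counts in cluster 7 and 1.27, 0.631, 1.02 and 0.416 in cluster 2, so that cluster 7 was the higher in 3 of 4 libraries. The 12 fibroblast-like cells of library 4 had 7.92 Ccl7 counts per cell and 13.9% of all Ccl7 counts there. Ccl2 had no steady first source: monocyte/macrophage-like cells held 79.5 and 48.3% of its counts in libraries 2 and 4, and neutrophil-like cells 62.9 and 52.0% in libraries 3 and 5. At a clustering resolution of 1, monocyte/macrophage-like cells were the first source in library 5 as well, at 45.4%, and neutrophil-like cells in library 3 alone, at 44.1%. Neutrophil-like cells made up 63.2 and 56.4% of the cells of those 2 libraries, and the Ccl2 level per cell was 1.29 in monocyte/macrophage-like and 0.805 in neutrophil-like cells as a mean over libraries.

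Ccl5 was held by a rare group. Cluster 10, led by Fscn1, Ccl22 and Ccr7, genes of migratory dendritic cells, and by Ccl5 itself, was left unnamed by the marker rule and made up 0.880 to 1.04% of the cells. It had 66.8, 70.5, 87.7 and 70.1 Ccl5 counts per cell in libraries 2 to 5 and held 69.5, 89.8, 74.8 and 79.8% of all Ccl5 counts. T/NK-like cells, the other known source, had 1.42 to 12.7 counts per cell and held at most 13.9% of the counts, and 38.5 to 51.9% of them were positive. In monocyte/macrophage-like cells Ccl5 had 0.103 to 0.119 counts per cell.

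The B-like cells, 8, 52, 74 and 109 in libraries 2 to 5, were set beside the other classes as a reference. Whether their counts are background RNA, their own transcripts or doublets was not tested. They had medians of 7428 to 7716 corrected counts, against 7482 to 7518 in neutrophil-like and 8510 to 8539 in monocyte/macrophage-like cells. Ccl24 was found in 12.5, 3.85, 0 and 1.83% of B-like cells of libraries 2 to 5, where 0 of 74 cells allows a share of up to 4.05%. Its shares in monocyte/macrophage-like cells, 42.4, 41.1, 40.9 and 40.0%, were far above these, while those in neutrophil-like cells, 6.20, 4.64, 3.81 and 3.84%, were below the B-like share in library 2 and close to it or within its limit in libraries 3 and 4, and above it in library 5, which had the most B-like cells. Ccl9 was found in 0, 7.69, 1.35 and 5.50% of B-like cells and in 75.9 to 81.7% of monocyte/macrophage-like cells. The 8 B-like cells of library 2 set its B-like values, and 0 of 8 allows a share of up to 37.5%.

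Ccl3 was found in 37.5, 9.62, 35.1 and 10.1% of B-like cells. In each library this was below the share in monocyte/macrophage-like cells, 43.0, 36.2, 44.2 and 31.0%, and in neutrophil-like cells, 61.6, 59.5, 64.3 and 58.7%. Among the 29, 9, 21 and 13 osteoclast-like cells of libraries 2 to 5, the Ccl3 share was 0, 33.3, 4.76 and 7.69%. It was above the B-like share in library 3 alone, and both classes had few cells. Whether these minor classes differ was not tested. For Ccl8 the B-like shares were 12.5, 5.77, 4.05 and 0.917%, and those of monocyte/macrophage-like cells 7.98, 4.30, 7.44 and 6.78%. In libraries 2 and 3 the Ccl8 share was thus no higher than in B-like cells, and in library 2 that comparison rests on 1 positive B-like cell of 8. The mean level of Ccl8 differed more, at 0.0676 to 0.125 counts in B-like cells and at least 0.560 in monocyte/macrophage-like cells. Ccl2 was found in 12.5, 5.77, 5.41 and 3.67% of B-like cells and in 11.3, 20.1, 18.9 and 15.7% of neutrophil-like cells of libraries 2 to 5. The neutrophil-like share was thus below the B-like share in library 2 alone.

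**Figure D4:**
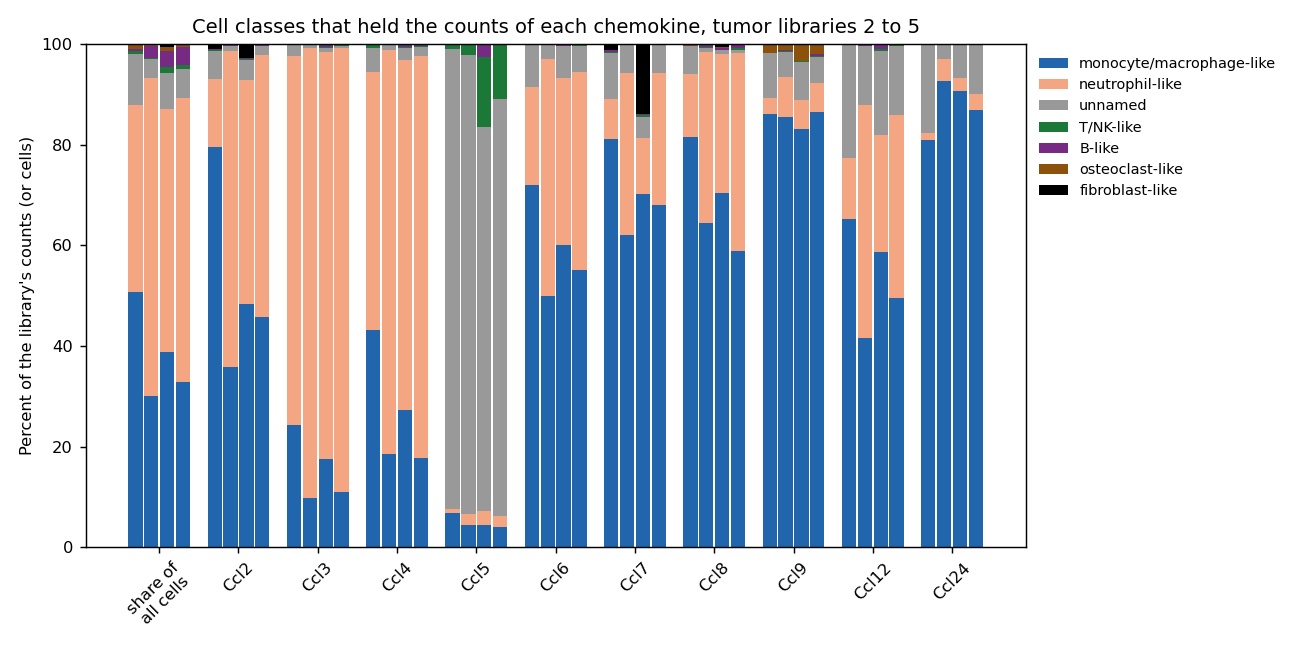
Percent of each CC chemokine's counts held by each cell class, with a bar for each of tumor libraries 2 to 5 in that order, beside the share of all cells in each class. Neutrophil-like cells fill 73.3 to 89.5% of the Ccl3 bars, monocyte/macrophage-like cells 80.9 to 92.6% of the Ccl24 bars, and unnamed clusters 76.2 to 91.4% of the Ccl5 bars.

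Receptors were spread differently over the tumor clusters. Ccr2 had a mean over libraries of 9.79 counts per cell in cluster 4 and of 4.47 in cluster 3, both monocyte-like, and of 0.0751 in cluster 0. Ccr1 was present in monocyte/macrophage-like and in neutrophil-like cells, with means of 8.04 in cluster 5, 7.10 in cluster 1, 5.92 in cluster 0 and 4.43 in cluster 2. Ccr7 was at 32.2 in cluster 10, the cells with the most Ccl5. Of the pairs of members, 5 reached an r of 0.3 over tumor-sorted cells, Ccl3 and Ccl4 and Ccl6 and Ccl9 at 0.47, Ccl9 and Ccl24 at 0.39, and Ccl7 at 0.37 with both Ccl2 and Ccl12. Ccl2 and Ccl7, which were at 0.79 and 0.84 in cultures, were thus less alike in tumor, where fewer cells had either transcript.

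The third question was whether the starts of these genes are open in B-cell precursors before culture. A called peak that overlapped the window from 1000 bases before to 500 bases after the start was found for 4 of the 10 members in at least 1 of 6 BM libraries and for 1 of 10 in at least 1 of 6 spleen libraries. Over 21924 protein-coding genes, 58.7% had such a peak in BM and 51.5% in spleen. In BM the Ccl4 start had a peak in 3 of 3 CSF1R+ and 2 of 3 CSF1R- libraries, Ccl3 in 2 and 3, Ccl2 in 2 and 1, and Ccl6 in 1 and 2. No library had a peak at the starts of Ccl5, Ccl7, Ccl8, Ccl9, Ccl12 or Ccl24, which include Ccl24 and Ccl5, the members with the largest ratio in B-MF. The spleen peak was at Ccl4, in 1 CSF1R+ library.

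These peaks were modest, with fold enrichments over the local background, as given by the authors' peak caller, of 3.82 to 7.20 for Ccl4, 4.58 to 6.17 for Ccl3, 4.80 to 5.85 for Ccl2 and 4.11 to 5.93 for Ccl6 in BM. The lists hold 65832 to 76530 peaks in BM and 43407 to 50392 in spleen without read counts. The methods give an average number of reads per sample, but the depth of each library is not given. A missing peak therefore does not show closed chromatin. CSF1R+ and CSF1R- precursors of BM did not separate at any member by the presence of a peak in all libraries of a group and in none of the other.

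Peaks farther from the starts were chosen after their values were seen, and positions are those of their midpoints in bases from the start. Within Ccl24, a peak lay at 1984 to 2206 bases from the start in 6 of 6 BM and 0 of 6 spleen libraries. A second peak, at 4070 to 4132 bases and thus beyond the end of the gene, was found in 6 BM libraries, and 1 spleen library had it at 4145 bases. Ccl6 had a peak upstream of its start, at -2932 to -2740 bases, in 6 of 6 spleen and in 0 of 6 BM libraries. Ccl9 had a peak at 6195 to 6275 bases, beyond its end, in all 12 libraries, and Ccl7 had a peak at 2511 to 2552 bases, also beyond its end, in 5 of 6 BM libraries and in no spleen library.

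**Figure D5:**
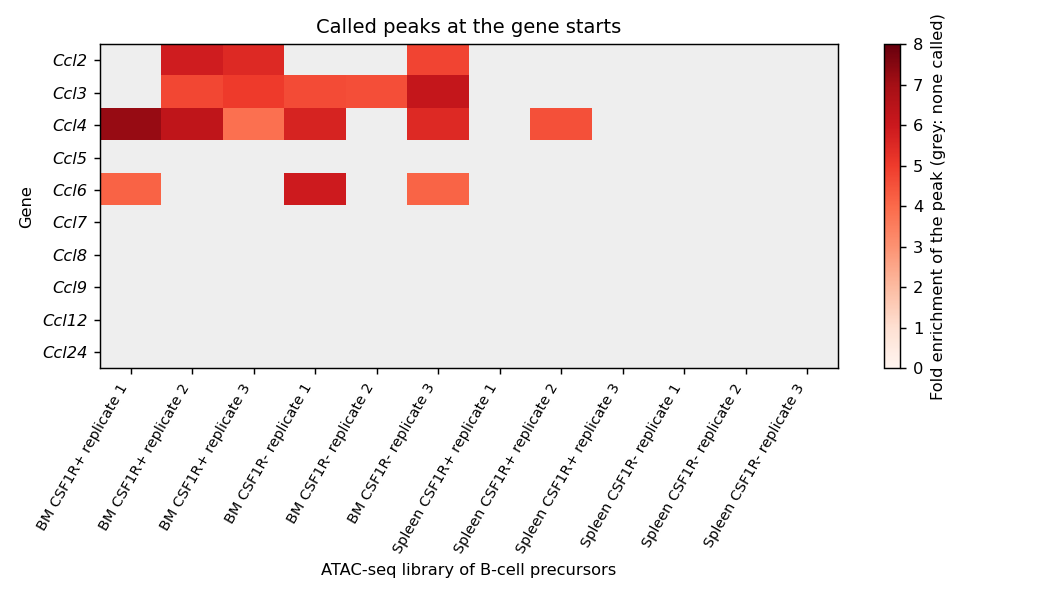
Fold enrichment of the called ATAC-seq peak within 1000 bases before to 500 bases after the start of each CC chemokine gene in 12 libraries of B-cell precursors, with gray where no peak was called. Color is present for Ccl2, Ccl3, Ccl4 and Ccl6 in BM and, in spleen, only for Ccl4 in 1 CSF1R+ library.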

How the data were processed

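For scRNA-seq, the authors counted 3′ tags with Cell Ranger and STAR, kept cells with at least 1000 genes, and applied SCTransform (Seurat). The deposited values are natural logs of 1 plus an SCTransform-corrected count. Every value gave a whole count when converted back, within 1e-06 natural log units. For open chromatin, the authors used cutadapt for trimming, BWA for alignment to mm10 and MACS2 for peaks of each library. The deposited lists give each peak's fold enrichment over background and its p-value and q-value, both as −log10. The tools are named per the labels and the methods.

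Counts were averaged over the cells of each library, and log2(mean + 0.1) was fitted in limma (lmFit, then eBayes) over genes with an average of at least 0.1 over the 4 culture libraries. Genes were called at a Benjamini-Hochberg adjusted p of 0.05. The fit was tested on simulated data. Replicates of a group were not copies, with a chi-square per gene of 12.1 in B-MF and 9.32 in Mo-MF.

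Cells were clustered in each table with the Leiden algorithm (resolution 0.5, 20 neighbors, 30 components, 2000 variable genes, no chemokine ligands or receptors). Names came from marker lists, the threshold for naming was set after the clusters were seen, and no doublet caller was run. The library of each cell was read from the prefix of its barcode. Thinning drew 10000 counts per cell in cultures and 5000 in tumor. Intervals of shares are exact (Clopper-Pearson) 95% intervals. GENCODE gave the gene positions on GRCm38 and RefSeq the promoters.

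The members and lists were chosen with earlier results of these data known. All 10 members are named. From each list, at most the 3 largest differences in each direction are named, as are the most similar genes (up to 3 per member with r of at least 0.3, among genes in at least 5% of cells). Alternatives were other pseudocounts, filters, scalings, cells, clusterings, windows and q-values, a replicate block and each library left out. Analyses used R 4.3.3, limma 3.58.1, Python 3.11.15 and leidenalg 0.10.2. Some genes of the lists are not reported here.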

Additional observations from a re-analysis of the deposited data

Results flagged for a closer look

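Of 40 tumor values tested with 4 libraries each, 6 had a library that stood apart from the other 3 by Dixon's test, and chance alone flags about 1 in 20. Library 2 was the highest for the mean level of Ccl6, at 6.09 counts per cell against 4.40 to 4.57, of Ccl12, at 0.964 against 0.253 to 0.339, and of Ccl24, at 3.07 against 1.37 to 1.62. Its share of cells with Ccl12 was 17.0%, against 7.89 to 9.09%. Library 2 also had the most monocyte/macrophage-like cells, 50.8% against 30.1 to 38.8%. Within those cells, Ccl24 in library 2 was at 4.88, inside the range of 3.62 to 4.91 of the others, while Ccl12 was at 1.24, against 0.350 to 0.511, and Ccl6 at 8.62, against 6.80 to 7.59. Library 4 had the highest mean level of Ccl5, at 1.03 against 0.813 to 0.850, and the lowest mean level of Ccl9 in monocyte/macrophage-like cells, at 4.33 against 4.70 to 4.76.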

How the results depend on the processing

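In the 12 alternatives of the culture comparison, all members except Ccl5 were called in the reported direction, and no member reversed. Among other named genes, Cxcl2, Il1b and Ptgs2 reversed to 1.68, 1.54 and 0.85 in monocyte/macrophage-like clusters alone and to 0.18, 0.13 and 0.02 when natural logs were averaged, and Ccl25 was called with the block, with equal totals and without B-MF replicate 1 (adjusted p of 0.012, 0.049 and 0.00048 from limma). Ccl5 was not called when natural logs were averaged (0.05, adjusted p = 0.080 from limma), where its adjusted p otherwise reached 0.034 at most, and over the pseudocounts of 0.01, 0.1 and 1 its log2 difference was 2.73, 1.39 and 0.27. That of Ccl24 ranged from 0.27 to 3.18 over all alternatives. The number of genes called, 3413 with 1955 higher in B-MF, ranged from 2042 to 5500, with 1103 to 3859 higher, when each library was left out, and the lone library was then assumed to vary like the other cell type. The lowest count, 2042, came without Mo-MF replicate 1 and the highest, 5500, without B-MF replicate 2, and the counts were 2158 without Mo-MF replicate 2 and 5205 without B-MF replicate 1. With the replicate number as a block, 3908 genes were called, 2238 of them higher, and the same 9 members were higher and 1 lower. The labels do not say that the numbers pair the libraries, and deviations of same-numbered libraries had a correlation of 0.126 over 8633 genes. The members found in at least 50% of cells of every library were 7 in B-MF and 5 in Mo-MF, 6 and 4 after thinning, and 5 and 4 where a positive cell needs at least 2 counts. With at least 2 counts the shares fell, for example from 21.5 to 7.70% for Ccl24 in B-MF, from 46.4 to 24.4% for Ccl2, from 37.8 to 18.3% for Ccl7 and from 61.5 to 34.4% for Ccl3 in Mo-MF. At that cutoff 9 members still had the larger share in B-MF. The share of all genes that did was taken only for at least 1 count, where 26.8% were above in both B-MF libraries and 26.0% below. At a clustering resolution of 1, monocyte/macrophage-like cells were the first tumor source of 6 members in place of 5. Of the 5490 neutrophil-like cells 841 then fell in an unnamed cluster with Ccl3 among its leading genes, and 517 in an unnamed cluster of 519 cells led by Birc5, Cdk1 and C1q genes, which had held 47.2% of the Ccl12 and 41.8% of the Ccl7 counts of the class. The neutrophil-like level of Ccl3 fell below its 15.9 counts per cell by more than the spread between libraries, while that of Ccl12 was 0.113 in place of 0.215 and that of Ccl7 0.0491 in place of 0.0814. Limits are the 2 libraries of each culture, the unknown sequencing depth behind corrected counts, background RNA, doublets that were not searched for, and the separate correction of cultures and tumor.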
